A study of Mus musculus with 6 samples.

Results

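The genes described here serve the liver's handling of high-density lipoprotein (HDL): Scarb1, the HDL receptor, with its adaptor Pdzk1; Abca1 and Abcg1, which export cholesterol and phospholipid; Lcat and Pltp, which remodel the particle in plasma; and Apom and Apof, apolipoproteins that the liver secretes. They were chosen by function, with earlier results of these data known. Every probe set (a set of short array probes read as 1 value) that the platform annotation pairs with 1 of the 8 symbols was used, which gave 15 probe sets of 45037 on the array and 8 genes of 18193. None of the 15 is also paired with another gene. Livers came from 6 female mice aged 8 weeks, 3 of the inbred strain SM/J (SM) and 3 of NZB/BinJ (NZB), with 1 array per mouse. All mice were weaned at 3 weeks, kept on chow, fasted for 4 h and were perfused with 50 mL of saline. No transgene or drug was involved, so that the strains differ by their whole genomes, and each is represented by 3 animals. The labels state no aim beyond the comparison of strains.

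Scarb1 encodes scavenger receptor class B type I, which binds HDL on hepatocytes and takes up its cholesteryl ester without degrading the particle. Pdzk1 binds the tail of the receptor and keeps the protein stable in the liver. Abca1 loads lipid onto apolipoprotein A-I to start a new particle, Lcat esterifies its cholesterol, and Pltp moves phospholipid onto it and fuses particles. Hepatic Abca1 and Scarb1 therefore act at opposite ends of the life of HDL, since 1 makes particles and the other empties them.

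Values are log2 expression, so that a difference of 1 is a doubling, and are written as the value in each mouse in order of replicate number. Differences are NZB minus SM, with the standard error (SE) of the limma fit, n = 3 mice per strain. A probe set was called changed at a limma p under 0.05 after Benjamini-Hochberg adjustment over all 45037 probe sets. At that threshold 14.8% of all probe sets were called, 6.09% higher and 8.69% lower in NZB, so that strain differences were common on this array. The array medians lay between 6.60 and 6.66. SM replicate 2 stood apart: its brightest Xist probe set read 7.32, against 12.6 to 12.9 on the other 5 arrays, while Y-linked probe sets read low on all of them. The labels call this mouse female, and results are therefore also given without it. The labels do not say whether the mice came from separate litters. The 13 probe sets of 6 Y-linked genes, which female liver should lack, read between 3.66 and 8.04 and are used as a guide to background. The highest reading came from a probe set whose identifier is marked for several transcripts or shared probes, and the highest unmarked one was 6.69. Of 4 Uty probe sets, 1 was called higher in NZB.

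Scarb1 was the only member to pass the test as lower in NZB liver, by 2.14-fold at its brightest probe set. Abcg1, Pltp and Apof rose in NZB, by 1.31-fold, 1.41-fold and 1.19-fold. Pdzk1, Abca1, Lcat and Apom did not pass the test. Over probe sets, 4 of 15 rose, 3 fell and 8 did not pass, and in 7 of 15 the arrays of the strains did not overlap, against 34.3% of all probe sets. Over genes, each read through its brightest probe set, 3 of 8 rose and 1 fell, against 7.09% and 11.2% of all genes. Since the members were chosen with earlier results of these data known, these shares are a description. The median difference of the members was 0.014 over genes, beside 0.021 over all genes, and the median size of the difference over their probe sets was 0.25, beside 0.10 over all probe sets. Leaving out SM replicate 2 gave 3 probe sets higher and 3 lower. Less RNA per cell and fewer cells of a type cannot be told apart in whole liver.

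**Figure D1:**
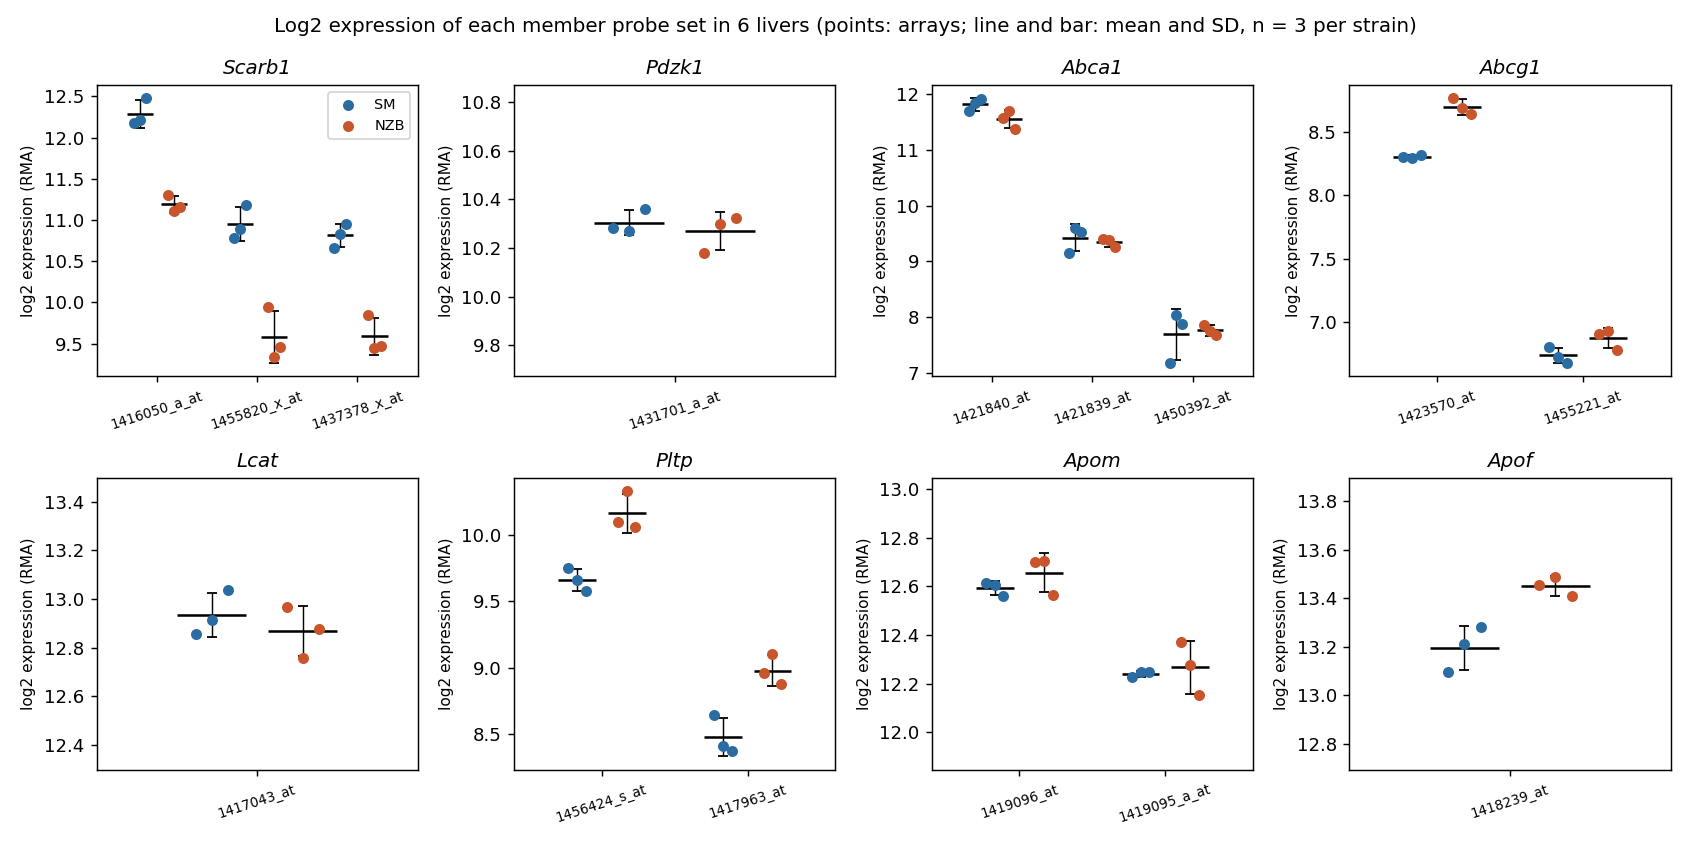
Log2 expression (vertical axis) of the 15 probe sets, grouped by gene, with 1 point per mouse and the mean and SD of each strain (n = 3). The SM and NZB points of Scarb1 are separated at all 3 probe sets, those of Pltp at both, and those of Pdzk1, Lcat and Apom overlap.

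The receptor showed the largest difference of the group. Its brightest probe set, 1416050_a_at, read 12.17, 12.21 and 12.48 in SM and 11.31, 11.11 and 11.16 in NZB. Every NZB mouse lay below every SM mouse. The difference was -1.09 (SE 0.094, 95% interval -1.31 to -0.88), 2.14-fold lower in NZB, with an adjusted p of 0.000131 in limma. A larger difference in either direction was seen in 1.06% of all probe sets.

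Both other Scarb1 probe sets fell too. Probe set 1455820_x_at read 10.78, 10.89 and 11.18 in SM and 9.94, 9.34 and 9.46 in NZB, a difference of -1.37 (SE 0.16, limma adjusted p = 0.000654). Probe set 1437378_x_at read 10.66, 10.83 and 10.95 in SM and 9.85, 9.44 and 9.47 in NZB, a difference of -1.23 (SE 0.12, limma adjusted p = 0.000248). At all 3 probe sets NZB replicate 1 was the highest NZB mouse and SM replicate 3 the highest SM mouse. The 3 probe sets read the same RNA and are not independent. The identifier of each carries a mark: _a_ for several transcripts of 1 gene and _x_ for probes that can bind other transcripts, and no unmarked Scarb1 probe set was on the array. Whether sequence differences between the strains lie under these probes was not tested. Without SM replicate 2 the differences were -1.13, -1.40 and -1.22, and the limma adjusted p of the brightest was 0.000901.

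Pdzk1, the adaptor, did not pass the test. Its single probe set, 1431701_a_at, read 10.28, 10.27 and 10.36 in SM and 10.18, 10.30 and 10.33 in NZB, with the strains interleaved. The difference was -0.036 (SE 0.066, limma adjusted p = 0.767), and its 95% interval of -0.19 to 0.11 stops far short of the change in Scarb1. Within each array the ratio of Scarb1 to Pdzk1 signal was 2.08-fold lower in NZB (log2 change -1.06, SE 0.12). The strains did not overlap in that ratio, and the two-sided exact permutation p was 0.1, the smallest that 3 mice against 3 allow. It remained 0.1 after adjustment over the 4 member ratios computed. The SEs of these ratios come from the variances within each strain, not from the limma fit.

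**Figure D2:**
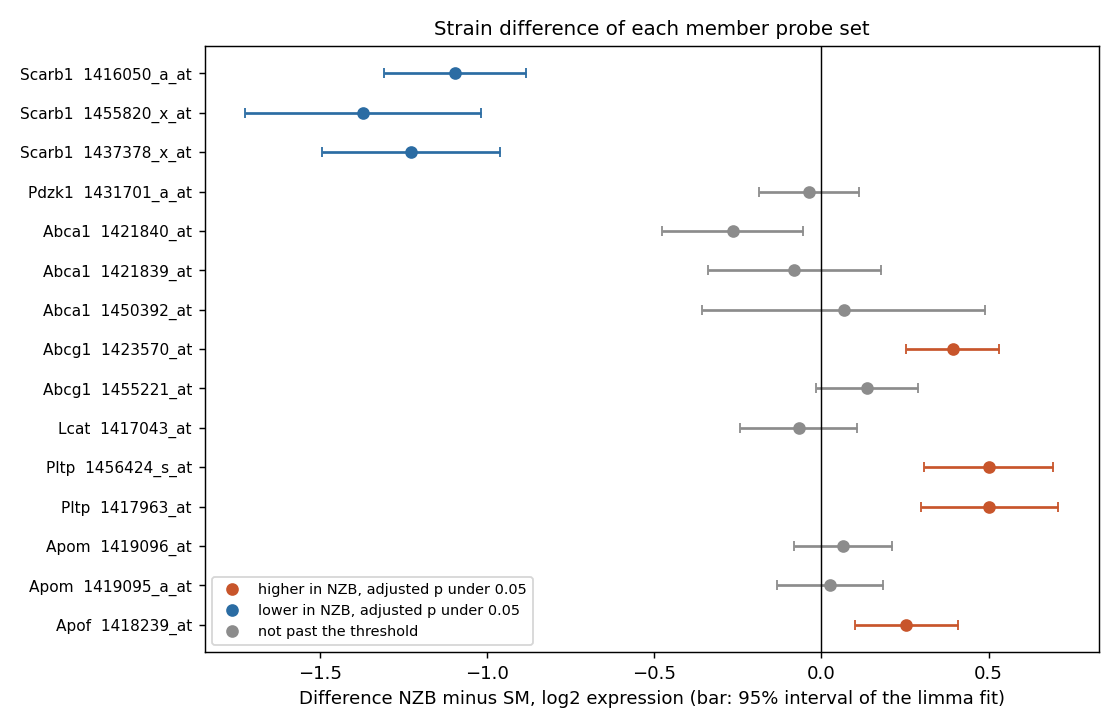
Difference NZB minus SM in log2 expression (horizontal axis) of each of the 15 probe sets, with the 95% interval of the limma fit (n = 3 mice per strain) and the call in color. The 3 Scarb1 probe sets lie between -1.37 and -1.09, and all others between -0.26 and 0.50.

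Of the exporters Abca1 and Abcg1, Abcg1 passed the test and Abca1 did not. Both are textbook targets of the liver X receptor (LXR), a sterol sensor that binds with the retinoid X receptor (RXR) to paired AGGTCA-like motifs 4 bases apart (a DR4 motif), and so is Pltp. The promoter windows of Abca1 and Pltp are shown as those of the members that are LXR targets and have a window in the table used. Each holds the 250 bases before the start of the gene in RefSeq, assembly GRCm38.p6, 5′ to 3′ on the strand of the gene. The Abca1 window is chr4:53159896-53160145 and the Pltp window chr2:164857709-164857958, both on the minus strand. Capitals mark, in order, an E-box (CACGTG), the best DR4 match (on the opposite strand) and a TATA box (TATAAA), and Pltp has none of these.
Abca1: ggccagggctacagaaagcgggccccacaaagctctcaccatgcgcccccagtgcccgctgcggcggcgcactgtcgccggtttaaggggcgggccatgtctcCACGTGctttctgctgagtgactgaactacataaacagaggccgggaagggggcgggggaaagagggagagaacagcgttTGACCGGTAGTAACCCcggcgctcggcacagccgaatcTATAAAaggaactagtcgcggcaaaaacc
Pltp: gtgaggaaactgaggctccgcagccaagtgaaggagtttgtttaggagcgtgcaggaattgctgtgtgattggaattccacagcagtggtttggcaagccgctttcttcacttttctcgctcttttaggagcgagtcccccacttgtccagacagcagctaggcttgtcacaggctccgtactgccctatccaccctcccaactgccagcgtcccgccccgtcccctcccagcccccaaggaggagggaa

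Windows were found for 5 of the 8 members, 6 in all, since Pdzk1 has a pair of them. They were searched on both strands for the E-box, the TATA box and the DR4 motif, for AGGTCA alone, which is part of an exact DR4, for the Sp1 motif GGGCGG and for the HNF4 motif CAAAGTCCA. Abca1 held CACGTG at position -147 (bases from the start of the gene), a DR4 match with 3 mismatches in 12 letters at -67, and TATAAA at -29. Of 32851 mouse promoter windows of this length, 6.02% hold CACGTG, 12.4% hold TATAAA and 18.5% hold a DR4 match with at most 3 mismatches. The first Pdzk1 window held a DR4 match with 2 mismatches at -50, as 2.57% of all windows do, with an exact AGGTCA as its left part (14.0% of windows). Lcat held a match as good as that of Abca1, with 3 mismatches at -22, and the best matches in Apom, the second Pdzk1 window and Pltp had 4, 4 and 5. GGGCGG, held by 32.7% of windows, was in those of Abca1, Pltp and the first of Pdzk1, and CAAAGTCCA, held by 0.384%, was in none of the 6. These are matches of letters in a short window of a reference genome, and the deposited values do not measure binding.

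Abca1 was read by 3 probe sets and none passed the test. The brightest, 1421840_at, read 11.69, 11.84 and 11.90 in SM and 11.57, 11.69 and 11.37 in NZB. The highest NZB mouse and the lowest SM mouse were level, and the difference was -0.26 (SE 0.093, 95% interval -0.48 to -0.05, unadjusted p 0.0191, limma adjusted p = 0.0928). Probe set 1421839_at read 9.14, 9.60 and 9.53 in SM and 9.41, 9.37 and 9.25 in NZB, a difference of -0.081 (limma adjusted p = 0.694). Probe set 1450392_at read 7.18, 8.04 and 7.88 in SM and 7.86, 7.75 and 7.68 in NZB, a difference of 0.067 (limma adjusted p = 0.855). SM replicate 1 was the lowest SM mouse at all 3, and without it the differences were -0.33, -0.22 and -0.19, of which none passed. Leaving out SM replicate 2 instead gave -0.25, 0.0083 and 0.24. With the probe sets averaged the difference was -0.093.

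Abcg1, which passes cholesterol to mature HDL and is strongly expressed in macrophages, rose in NZB. Probe set 1423570_at read 8.30, 8.30 and 8.32 in SM and 8.77, 8.69 and 8.64 in NZB. The SM mice were nearly level, and every NZB mouse lay above them. The difference was 0.39 (SE 0.061, 95% interval 0.25 to 0.53, limma adjusted p = 0.00328), 1.31-fold, and it was 0.39 without SM replicate 2 (limma adjusted p = 0.0169). The dimmer probe set 1455221_at read 6.80, 6.73 and 6.68 in SM and 6.91, 6.93 and 6.78 in NZB, all under the brightest Y-linked reading, and its difference of 0.14 did not pass (limma adjusted p = 0.221). The ratio of Abcg1 to Abca1 signal within an array was higher in NZB by 0.66 on the log2 scale (SE 0.10), with no overlap between strains (exact permutation p = 0.1, two-sided).

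Of the remodelling proteins, Pltp, the phospholipid transfer protein, rose at both of its probe sets and Lcat did not pass. The mark _s_ in a Pltp identifier stands for probes shared by several transcripts. Probe set 1456424_s_at read 9.75, 9.66 and 9.58 in SM and 10.10, 10.33 and 10.06 in NZB, a difference of 0.50 (SE 0.085, 95% interval 0.31 to 0.69, limma adjusted p = 0.00509), 1.41-fold. Probe set 1417963_at read 8.64, 8.41 and 8.37 in SM and 8.96, 9.10 and 8.87 in NZB, a difference of 0.50 (SE 0.091, limma adjusted p = 0.00668). NZB replicate 2 was the highest mouse and SM replicate 3 the lowest at both, and the strains did not overlap. Without SM replicate 2 the differences were 0.50 and 0.47 (limma adjusted p = 0.0232 and 0.0319).

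Lcat, lecithin-cholesterol acyltransferase, was read by 1417043_at at 12.86, 12.91 and 13.04 in SM and 12.97, 12.76 and 12.88 in NZB. The strains overlapped, and the difference of -0.067 (SE 0.077, 95% interval -0.24 to 0.11) did not pass (limma adjusted p = 0.619). The ratio of Pltp to Lcat signal was higher in NZB by 0.57 on the log2 scale (SE 0.17, exact permutation p = 0.1, two-sided), with no overlap. In SM the ratio itself varied, from 0.16 above the SM mean in replicate 1 to 0.18 below it in replicate 3.

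Apom and Apof are the secreted apolipoproteins of the group, and Apom carries sphingosine 1-phosphate on HDL. Apof, read by 1418239_at, was at 13.10, 13.21 and 13.28 in SM and 13.45, 13.49 and 13.41 in NZB. Every NZB mouse lay above every SM mouse, by a small margin. The difference was 0.25 (SE 0.068, 95% interval 0.10 to 0.41), 1.19-fold, with a limma adjusted p of 0.0364. That call was lost without any 1 of SM replicates 1 and 2 and NZB replicates 1, 2 and 3, at adjusted p of 0.0949, 0.092, 0.0901, 0.115 and 0.0796, over a range of 0.0188 to 0.115 in all settings tried. Apof is also a bright probe set, where the scale is compressed.

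Apom did not pass at either probe set. Probe set 1419096_at read 12.61, 12.60 and 12.56 in SM and 12.70, 12.71 and 12.56 in NZB, a difference of 0.064 (95% interval -0.082 to 0.21, limma adjusted p = 0.563). Probe set 1419095_a_at read 12.23, 12.25 and 12.25 in SM and 12.37, 12.27 and 12.15 in NZB, a difference of 0.026 (limma adjusted p = 0.847). The ratio of Apof to Apom signal was higher in NZB by 0.19 (SE 0.073, exact permutation p = 0.1, two-sided).

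**Figure D3:**
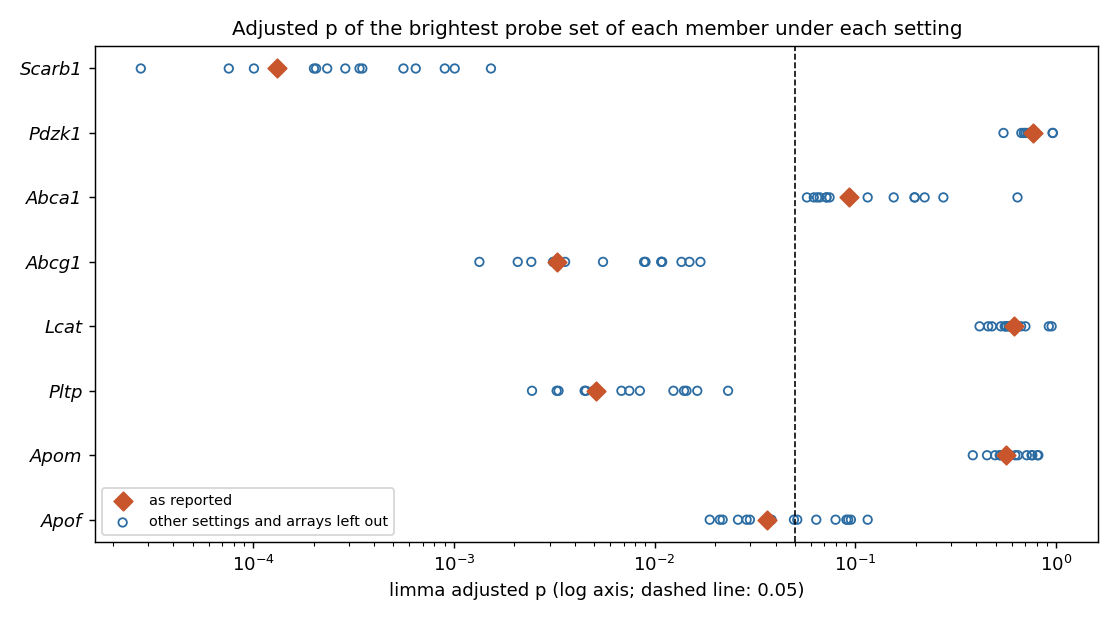
Limma adjusted p (log axis, dashed line at 0.05) of the brightest probe set of each gene as reported (diamond) and under each alternative setting or with 1 array left out (circles). Scarb1, Abcg1 and Pltp stay left of the line, with highest values of 0.00153, 0.0169 and 0.0232, Abca1 stays right of it from 0.0573 upwards, and Apof crosses it.

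The members were set beside 10 lists of related genes, 138 measured genes in all, of which 21 rose and 31 fell in NZB by the same limma test. Over all genes, 7.09% rose and 11.2% fell. The lists were drawn up with earlier results on these arrays known and are a description. The counts were 15 and 22 without SM replicate 2.

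Of 10 measured genes that work with Scarb1 or Pdzk1 or are relatives of Scarb1, 3 fell, 1 rose and 6 did not pass, with a median difference of -0.04. Cd36 and Scarb2, with the largest falls, are relatives of the receptor. Cd36, the class B scavenger receptor that takes up fatty acids, fell by 1.81 on the log2 scale (SE 0.11, limma adjusted p = 2e-05). Scarb2, the lysosomal relative of the family, fell by 0.57 (SE 0.087, limma adjusted p = 0.003). Slc9a3r1, another PDZ scaffold and named after its values were seen, fell by 0.32 (limma adjusted p = 0.0446). Nos3, the endothelial nitric oxide synthase that Scarb1 activates, rose by 0.41 (limma adjusted p = 0.0175), and it did not pass without SM replicate 2, NZB replicate 2 or NZB replicate 3, which left 0 genes higher. All Nos3 readings lay under the brightest Y-linked one, so that 0 genes were higher among probe sets above it, and 3 were higher with the probe sets of each gene averaged. Pdzk1ip1, a small Pdzk1-binding protein, differed by 0.15 at its brighter probe set and did not pass there (limma adjusted p = 0.198). The other of its 2 probe sets was called higher in NZB, with a difference of 0.36.

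Of 15 measured LXR receptors and target genes other than the members, 7 fell, 1 rose and 7 did not pass, with a median of -0.16. Cyp7a1, the hydroxylase that starts the main route from cholesterol to bile acids, fell by 1.68 (SE 0.27, limma adjusted p = 0.00368). Lpcat3, a phospholipid-remodelling acyltransferase, fell by 0.51 (limma adjusted p = 0.0102). The others that fell, named after their values were seen, were Abcg5 and Abcg8, the paired sterol exporters of the bile canaliculus (-0.36 and -0.47), Mylip, which degrades the LDL receptor (-0.46), Srebf1, the lipogenic transcription factor (-0.33), and Rxra, the RXR subunit (-0.39). Lpl, lipoprotein lipase, rose by 2.12 (SE 0.15, limma adjusted p = 3.9e-05). Nr1h3, which encodes LXR alpha, differed by 0.022 (limma adjusted p = 0.862). Of the members that are LXR targets, Abcg1 and Pltp thus rose and Abca1 did not pass. Of the listed genes, Lpl rose, 7 LXR targets or partners fell, or 5 without SM replicate 2, and 7 did not pass. Rxra was called lower at 1 of its 3 probe sets, which differed by -0.39 to 0.17.

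Among 20 measured transcription factors and coregulators of lipoprotein genes, 8 fell, 1 rose and 11 did not pass, with a median of -0.21. Cebpb, a factor of the acute phase and of gluconeogenesis, fell by 1.34 (SE 0.13, limma adjusted p = 0.000255), and Nr1i2, the xenobiotic receptor PXR, by 1.18 (SE 0.11, limma adjusted p = 0.000159). Pparg, the adipogenic nuclear receptor, rose by 0.28 (limma adjusted p = 0.0435), and that call was lost without SM replicate 1, 2 or 3 and without NZB replicate 1 or 2, which left 0 genes higher, and also with medians aligned or with the replicate block. All Pparg readings lay under the brightest Y-linked one. The number lower was 5 without SM replicate 2.

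The 24 apolipoproteins and other HDL proteins had a median of 0.00, with 3 higher, 2 lower and 19 not past the threshold. Apoa1 and Apoa2, the main structural proteins of HDL, differed by 0.018 and 0.035 (limma adjusted p = 0.885 and 0.751). Both read near the top of the scale. Pon3, an HDL-bound lactonase, rose by 0.55 (SE 0.067, limma adjusted p = 0.000895), Apoc2, the activator of lipoprotein lipase, rose by 0.49 (SE 0.076, limma adjusted p = 0.00324), and Pon2, named after its values were seen, by 0.38. Apon fell by 0.38 (SE 0.067, limma adjusted p = 0.00605) and Apoa5, which supports the clearance of triglyceride, by 0.33 (limma adjusted p = 0.0295), a call lost in 6 of 15 settings. Without any 1 of SM replicates 2 and 3 and NZB replicates 1, 2 and 3, 1 gene was lower.

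Of 12 lipases, lipoprotein receptors and their regulators, 3 rose, 3 fell and 6 did not pass. Lpl led the rises, with Sort1, a sorting receptor for lipoproteins, at 0.36 (limma adjusted p = 0.0105) and Lmf1, a lipase chaperone named after its values were seen, at 0.34. Lipg, the endothelial lipase that hydrolyses HDL phospholipid, fell by 1.45 (SE 0.099, limma adjusted p = 3.9e-05). Its readings in NZB replicates 1 and 2 lay under the brightest Y-linked one. Of 3 Lipg probe sets 2 were called lower, with differences from -1.94 to -0.11 over the 3. Vldlr, the very low density lipoprotein receptor, fell by 0.63 (SE 0.16, limma adjusted p = 0.0311), with its NZB readings under the brightest Y-linked one, and Mylip is given above. The Vldlr call was lost in 5 of 14 settings, and with its probe sets averaged the difference was -0.36. Without NZB replicate 3, 1 gene was lower, and with the array medians aligned 5 were.

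Of 16 other Abca and Abcg transporters, 4 rose, 4 fell and 8 did not pass. Abca8b rose by 0.70 (SE 0.11, limma adjusted p = 0.00337) and Abcg2, an exporter of drugs and urate, by 0.63 (SE 0.085, limma adjusted p = 0.00152). Abca6 fell by 0.76 (SE 0.12, limma adjusted p = 0.00332) and Abca5 by 0.55 (SE 0.083, limma adjusted p = 0.0029). All Abca5 readings lay under the brightest Y-linked one, its other probe set differed by -0.0069, and the average of both by -0.28. The remaining calls, named after their values were seen, were Abca8a at 0.56 and Abca2 at 0.32, with Abcg5 and Abcg8 as above.

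Within the cell, 3 of 19 genes of cholesterol transfer and esters rose, 4 fell and 12 did not pass. Npc1, which lets cholesterol out of the lysosome, fell by 0.81 (SE 0.076, limma adjusted p = 0.000231), and Osbpl2, an oxysterol-binding relative, by 0.55 (SE 0.068, limma adjusted p = 0.00102). Ces1f, a carboxylesterase, rose by 0.65 (SE 0.11, limma adjusted p = 0.00518), and Lipa, the lysosomal acid lipase, by 0.26 (limma adjusted p = 0.0266), a call lost in 6 of 14 settings. Named after their values were seen, Fabp1 rose by 0.21, Gramd1c fell by 0.37 and Osbpl1a by 0.28. Without any 1 of SM replicates 2 and 3 and NZB replicates 1, 2 and 3, 1 gene was higher, and without SM replicate 2, NZB replicate 2 or NZB replicate 3, 2 were lower.

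Of 13 genes of sphingosine 1-phosphate, the cargo of apolipoprotein M, 2 rose, 2 fell and 9 did not pass. S1pr5 and S1pr1, receptors for it, rose by 1.48 (SE 0.088, limma adjusted p = 1.7e-05) and 0.43 (SE 0.11, limma adjusted p = 0.0291), the second call being lost in 5 of 15 settings. Plpp3, a lipid phosphatase, fell by 0.80 (SE 0.083, limma adjusted p = 0.0004), and Spns2, the sphingosine 1-phosphate exporter, by 0.74 (SE 0.087, limma adjusted p = 0.000799). Without SM replicate 2, NZB replicate 1 or NZB replicate 3, 1 gene was higher. The S1pr5 values in SM and in NZB replicate 2 lay under the brightest Y-linked reading of 8.04, and NZB replicates 1 and 3 read 8.12 and 8.23.

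Of 8 other HDL uptake genes only Stab2, a scavenger receptor of sinusoidal endothelium, passed, with a rise of 0.97 (SE 0.15, limma adjusted p = 0.00277). Cubn, Amn, Lrp2, P2ry12 and P2ry13, among those that did not pass, lay under the brightest Y-linked reading in all mice. Of 6 relatives of Pltp and Lcat in lipid transfer and phospholipid metabolism, 3 rose and 1 fell. Pla2g7, the platelet-activating factor hydrolase that travels on lipoproteins, rose by 1.09 (SE 0.082, limma adjusted p = 6.4e-05), with all 6 readings under the brightest Y-linked one. Pla2g12b, a secreted phospholipase relative, rose by 0.50 (SE 0.097, limma adjusted p = 0.009), and Pemt, named after its values were seen, by 0.29. Pcyt1a, an enzyme of phosphatidylcholine synthesis, fell by 0.35 (limma adjusted p = 0.012), and 2 genes were lower without SM replicate 2. With its 4 probe sets averaged Pcyt1a differed by -0.051 (limma adjusted p = 0.66; 0.00788 to 0.66 over all settings), which left 0 genes lower.

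**Figure D4:**
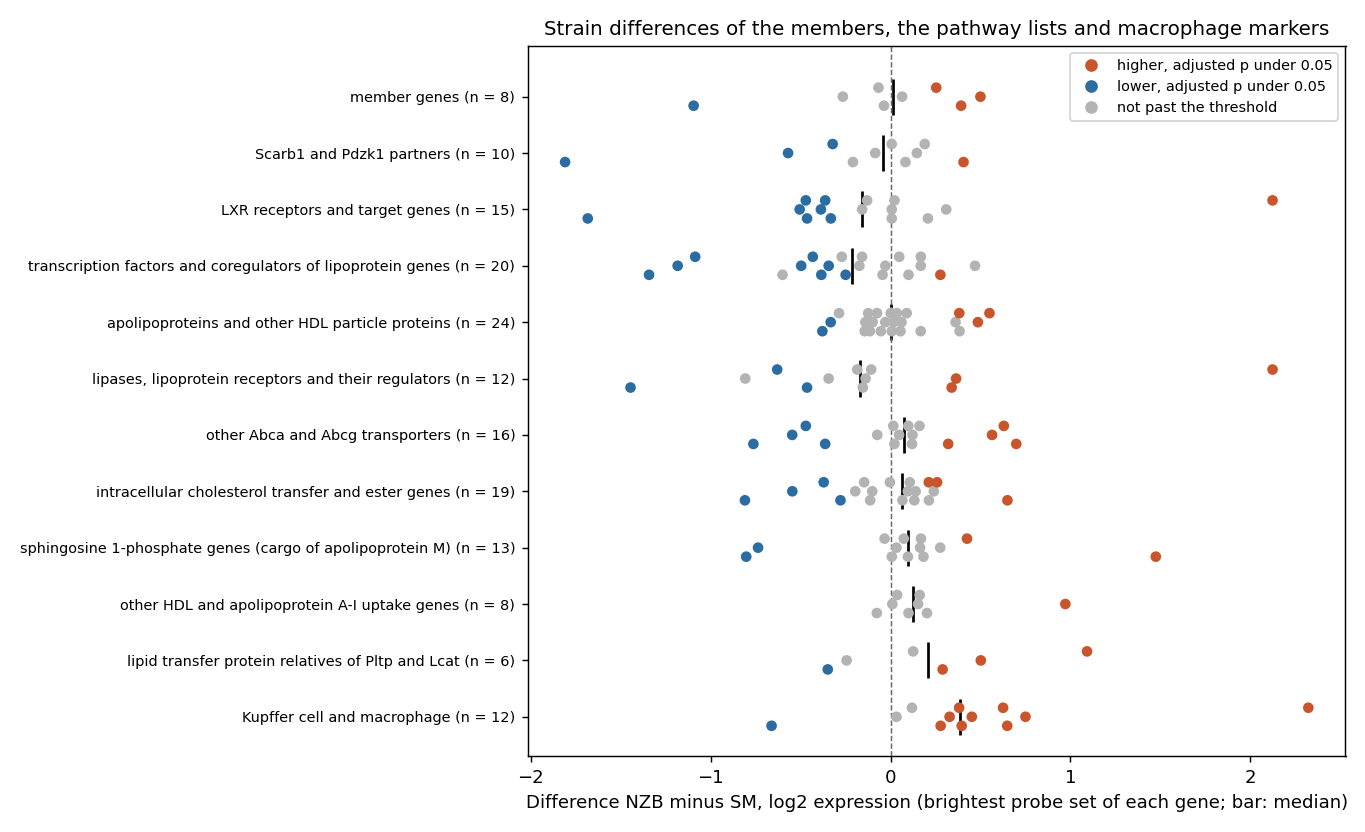
Difference NZB minus SM in log2 expression (horizontal axis) of each gene, read through its brightest probe set, for the members, the 10 pathway lists and the macrophage markers. Each point is a gene, color gives the call, and the bar is the median, which is 0.01 for the members and 0.39 for the macrophage markers.

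Markers of other liver cells differed between the strains beside these genes. Of 12 Kupffer cell and macrophage markers, 9 rose in NZB, 1 fell (Marco, -0.66) and 2 did not pass (Clec4f at 0.03 and Timd4 at 0.12), with a median of 0.39. Lyz2, the macrophage lysozyme, rose by 2.32. The summed level of the 12 on the linear scale, relative to the SM mean, was 0.949 to 1.06 in SM and 1.35 to 1.60 in NZB, and 2 of the 12 (Timd4 and Marco) had means under the brightest Y-linked reading. Without SM replicate 2, 8 rose, and without NZB replicate 2 or NZB replicate 3, 5 did. Abcg1 and Pltp, which macrophages express, and Apof rose beside them, and the part of these cells in the members' results was not tested.

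Of 10 hepatocyte markers 0 rose and 3 fell (Tat, Asgr2 and Hnf4a). Hnf4a was called lower at 1 of its 4 probe sets, which differed by -0.40 to 0.052. The summed level of the 10 markers was 0.984 to 1.02 in SM and 0.954 to 0.990 in NZB. That sum rests mostly on very bright probe sets such as Alb, where the scale is compressed, and the part of hepatocyte share in the Scarb1 result was not tested. Of 9 sinusoidal endothelial markers 3 rose and 2 fell, with sums of 0.976 to 1.01 in SM and 1.04 to 1.17 in NZB. The sums of B and plasma cell markers were 0.947 to 1.06 in SM and 10.6 to 21.7 in NZB. These were carried by the antibody genes Ighm (20.3-fold higher) and Jchain (19.5-fold), while the B cell gene Ms4a1 was higher by 0.38 on the log2 scale, Cd79a and Cd79b did not pass, and 3 of the 5 had means under the brightest Y-linked reading. Those of neutrophil markers were 1.28 to 1.59 and of T cell markers 1.11 to 1.18 in NZB, and the mean over all arrays of every marker of these last 2 types lay under the brightest Y-linked reading. Of 2 erythroid markers Alas2 fell by 1.10 and Hba-a1 did not pass, with sums of 0.782 to 1.38 in SM and 0.371 to 0.649 in NZB. None of 8 stellate cell, 5 cholangiocyte and 2 adipocyte markers passed in limma (3, 1 and 0 at an unadjusted p under 0.05), and their NZB sums were 0.791 to 1.03, 1.01 to 1.08 and 1.04 to 1.33. The part of these cells in the members' results was not tested.

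For each member past the threshold, the genes with the most similar profile over the 6 arrays were found by Pearson correlation of brightest probe sets among genes with an SD of at least 0.3. The 6 points share strain, so that a large r reflects mostly the order of the strains, and no p is given. For Scarb1 they were Krt23, an epithelial keratin, and Prox1os, an antisense transcript of Prox1 (both r = 0.997), and 233 of 1175 genes had an r over 0.95. For Abcg1 they were Iglv1, an immunoglobulin light chain segment, and Cep85, a centrosomal protein (both r = 0.996, with 152 genes over 0.95). For Pltp they were Fabp7, a fatty acid binding protein (r = 0.997), and Ccl9, a chemokine (r = 0.995), with 63 genes over 0.95. For Apof they were Ly6f (r = 0.974) and Abcc2, the canalicular exporter of conjugates (r = 0.971), with 19 genes over 0.95.

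The genes on either side of each member on the chromosome were read to see whether strain differences ran across neighbours. Of 16 measured neighbours, 2 rose, 4 fell and 10 did not pass, where 7.09% of all genes rose and 11.2% fell. The neighbours of Scarb1, Rflna and Dhx37, differed by -0.13 and 0.031 (limma adjusted p = 0.429 and 0.834). Those of Abcg1, Umodl1 and Tff3, did not pass either, nor did Cd160 and 4930442L01Rik beside Pdzk1 or Nipsnap3b and Lexis1 beside Abca1. Dhx37, Umodl1, Tff3, Cd160, 4930442L01Rik, Lexis1 and, beside Lcat, Slc12a4 lay under the brightest Y-linked reading in all mice, which limits what they can show.

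Both neighbours of Pltp fell by small amounts, Ctsa, the lysosomal protective protein, by 0.29 (limma adjusted p = 0.0463) and 4930445K14Rik by 0.24 (limma adjusted p = 0.0392). The Ctsa call was lost in 8 of 15 settings (limma adjusted p 0.0223 to 0.598), and with its probe sets averaged its difference was -0.053. That of 4930445K14Rik was lost in 7 of 15 (limma adjusted p 0.0211 to 0.13). Apof rose while Apon next to it fell by 0.38, and Stat2 on its other side differed by -0.25 and did not pass. Apom did not pass, yet Gpank1 beside it rose by 0.57 (SE 0.059, limma adjusted p = 0.000393) and Bag6 on the other side fell by 0.28 (SE 0.075, limma adjusted p = 0.0344). The Bag6 call was lost in 6 of 14 settings, over a range of 0.0221 to 0.123, among them without any 1 array other than SM replicate 3. Beside Lcat, Psmb10, a subunit of the immunoproteasome, rose by 0.24 (limma adjusted p = 0.0455), a call lost in 6 of 15 settings (0.0108 to 0.152), and Slc12a4, a potassium-chloride cotransporter, did not pass.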

How the data were processed

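Liver RNA of 3 SM and 3 NZB mice was measured on 1-color expression arrays. The authors made the deposited log2 values with RMA (background correction, normalization and probe set summary), per the submitters' processing notes; the sources used here name no version. The log base was inferred from the highest value of 14.9: a 16-bit scanner reaches 16 in log2 and 11.1 in natural logs. Differences on such arrays are compressed near background and saturation. No normalization was added.

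All 45037 probe sets were fitted together with limma 3.58.1 in R 4.3.3 (lmFit, eBayes), two-sided, unpaired, with Benjamini-Hochberg adjustment over all of them. The limma step was tested on simulated data. A gene was read through the probe set with the highest mean over 6 arrays. Symbols came from the platform annotation, updated by Entrez ID to RefSeq for 34741 of 34945 probe sets with 1 gene; 932 with several and 9160 with none were left unnamed. The number of arrays limits the precision. Same-numbered mice showed no sign of deviating together (r = 0.037, -0.055 and 0.025, against -0.11 to 0.083 for the other pairs). With 3 mice per strain this cannot exclude a pairing.

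The members and lists were chosen with earlier results of these data known. The text names the 8 members, up to 2 genes per list and direction with the largest called differences, Apoa1 and Apoa2, the 2 genes most like each called member and the neighbours of each member, besides genes said to be named after their values were seen.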

Additional observations from a re-analysis of the deposited data

How the results depend on the processing

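The settings tried were other normalizations, variance models, filters on dim or marked probe sets, other ways to read a gene and each array left out. The filter at the brightest unmarked Y-linked reading, 6.69, and the marker counts without single arrays were chosen after seeing the data. Scarb1, the brighter Abcg1 probe set and Pltp kept their calls wherever they could be computed. Of the member values under other settings, 189 kept direction and side of the threshold, 7 lost the call and 7 changed sign. All 7 lost calls are of Apof: 0.0513 with quantile normalization, 0.0638 with the replicate block, and the 5 arrays named above. The probe sets past the threshold numbered 6659, and 4128 with only those above the brightest Y-linked reading (fewer tested). With each array left out they numbered 3741 to 6386: 3741 without NZB replicate 3, 4413 without NZB replicate 2 and 4117 without SM replicate 2. Leaving out an array gave 3 to 4 member probe sets higher and 3 lower, and 2 to 3 member genes higher and 1 lower. Without marked probe sets 0 member probe sets and 0 member genes were lower, since all 3 of Scarb1 are marked. The replicate block gave 6006 probe sets, with 3 member probe sets higher and 3 lower, and other than Apof it changed no member's call.

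Values that changed sign were all far from the threshold, and the cause was not tested. Pdzk1 was 0.041 with quantile normalization, 0.0082 without NZB replicate 1 and -0.065 without NZB replicate 3, the ends of its range with an array left out. Abca1 1421839_at was 0.0098 with quantile normalization and, with an array left out, from -0.22 to 0.0083, the last without SM replicate 2. Abca1 1450392_at ranged from -0.19, without SM replicate 1, to 0.24. Apom 1419095_a_at was -0.0061 with medians aligned and -0.025 without NZB replicate 1, against up to 0.082 without other arrays. Apoa1 was -0.014 with medians aligned, -0.061 with quantile normalization and -0.021 without SM replicate 1 (up to 0.039 without others), and Apoa2 -0.0084 with quantile normalization. Dhx37 was -0.0015 and -0.011 under these normalizations, -0.033 without SM replicate 2 and -0.012 without NZB replicate 3, and 0.073 without SM replicate 1. Tff3 was 0.018 without SM replicate 1 and down to -0.14 without others. Of calls, 41.2% were higher in NZB as deposited, 31.3% with medians aligned and 46.0% with quantile normalization. Of the other named genes' values, 636 kept direction and side, 60 lost the call, 4 gained it and 9 changed sign. Probe sets near the Y-linked readings, among them the dimmer of Abcg1, are limited by signal over background.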
